A study of Homo sapiens with 4 samples.

Results

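CD28, CTLA4 and ICOS are receptors of 1 family, and CD80, CD86 and ICOSLG are their ligands. Chromatin accessibility at these 6 genes was read from peak lists of ATAC-seq, an assay that marks accessible DNA by letting a transposase, Tn5, insert adapters into it. Peaks of 4 libraries were merged where they overlapped, and every merged region that touched a member gene or the 50 kb on either side of it was taken. This gave 44 of 73729 regions, at 6 of 19970 protein-coding genes. CD28 was chosen because its start region was lower with PHF19 overexpression, so its PHF19 values are a description and support nothing. The other 5 genes came in as its family and their ligands. The neighbouring CTLA4 and ICOS windows share 3 regions.

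AMO1, the established line of malignant plasma cells (multiple myeloma) used here, was profiled with 1 library for each of 4 groups. The empty vector library came from wild-type cells transfected with the PCDH vector without insert, and the PHF19 overexpression library from cells transfected with PHF19 plasmids. The IFN empty vector and IFN PHF19 overexpression libraries carry the same genotype and treatment labels, with an IFN prefix in their titles that the labels do not explain. All 4 groups were transfected, none is an untransfected control, and the labels name no clone, promoter or duration. PHF19 is an accessory subunit of Polycomb repressive complex 2, which silences genes by methylating histone H3, and PHF19 levels were not analysed here. With 1 library per group there is no replicate, no difference was tested, and each 95% interval covers counting error only.

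T cells need CD28 engaged by CD80 or CD86 on an antigen-presenting cell, beside the antigen receptor, for full activation. CTLA4 binds the same ligands more tightly and restrains the response, while ICOS has its own ligand, ICOSLG, and supports helper T cells. Outside T cells, CD28 is found on long-lived plasma cells and on many myeloma cells, where it can bind CD86 on neighbouring cells or on the myeloma cells themselves.

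The peak lists rested on 16.4 to 65.9 M (mega) fragments, with the IFN empty vector library the deepest and the IFN PHF19 overexpression library the shallowest. The lowest called peak had 8 to 16 fragments, so the weakest peaks of the deepest library could not be called in the others. The header of the IFN empty vector list gives a project folder that differs from the 1 the other lists share. The label was checked against marker genes. All 12 plasma cell markers listed, among them SDC1, IRF4 and XBP1, had a region at a gene end in all 4 libraries. Of 13 T cell markers 3 had one (CD3E, CD4 and CD8A) and 5 had none in any library, among them CD3G, CD5, CD8B and ZAP70. Of 8 B cell markers 3 had one, and MS4A1, PAX5 and CD79A were among those with none in any library. Of 8 markers of antigen-presenting myeloid cells 3 had one, and CD14 and LYZ were among the 5 with none. For comparison, 11982 of all 19970 protein-coding genes had a gene-end region in all 4 libraries. No gene-end peak in any library was found at 6831 of them.

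The promoter windows of 4 members are printed because the accessibility of their starts differed in kind: CD28 and CD80 had a peak there, CTLA4 and ICOSLG none in any library. Each window is RefSeq sequence on GRCh38.p14, 250 bases before to 50 after the start site, 5′ to 3′ on the strand of the gene. CD28 lies at chr2:203706389-203706688 on the plus strand, CTLA4 at chr2:203867521-203867820 on the plus strand, CD80 at chr3:119559565-119559864 on the minus strand and ICOSLG at chr21:44240894-44241193 on the minus strand. Capitals in the first 3 mark matches to 11 searched motifs, and capitals in ICOSLG mark a run of 277 bases that another window repeats.
CD28: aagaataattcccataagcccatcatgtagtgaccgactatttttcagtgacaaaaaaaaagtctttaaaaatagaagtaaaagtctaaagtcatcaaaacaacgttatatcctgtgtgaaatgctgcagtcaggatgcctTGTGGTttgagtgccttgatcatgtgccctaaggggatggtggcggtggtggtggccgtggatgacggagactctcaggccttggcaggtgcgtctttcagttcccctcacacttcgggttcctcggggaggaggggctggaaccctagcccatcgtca
CTLA4: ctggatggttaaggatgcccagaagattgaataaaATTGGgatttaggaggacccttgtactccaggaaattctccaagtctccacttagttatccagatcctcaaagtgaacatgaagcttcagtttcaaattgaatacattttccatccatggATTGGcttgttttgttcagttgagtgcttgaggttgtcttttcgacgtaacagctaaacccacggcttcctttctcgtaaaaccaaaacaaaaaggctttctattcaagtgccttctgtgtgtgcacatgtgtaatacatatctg
CD80: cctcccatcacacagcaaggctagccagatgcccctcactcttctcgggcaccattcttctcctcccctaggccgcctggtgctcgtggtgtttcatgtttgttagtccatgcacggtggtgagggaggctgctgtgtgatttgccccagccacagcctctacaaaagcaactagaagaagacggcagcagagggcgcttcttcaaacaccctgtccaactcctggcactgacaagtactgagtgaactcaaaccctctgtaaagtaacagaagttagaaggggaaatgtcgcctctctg
ICOSLG: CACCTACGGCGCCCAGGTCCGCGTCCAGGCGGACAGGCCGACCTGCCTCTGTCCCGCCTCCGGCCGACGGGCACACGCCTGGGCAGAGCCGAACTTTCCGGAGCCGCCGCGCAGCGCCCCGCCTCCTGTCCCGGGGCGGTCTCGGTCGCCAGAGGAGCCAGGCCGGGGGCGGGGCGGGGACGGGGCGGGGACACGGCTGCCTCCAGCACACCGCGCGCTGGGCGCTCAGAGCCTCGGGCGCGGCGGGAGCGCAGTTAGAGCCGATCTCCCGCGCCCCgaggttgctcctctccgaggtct

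The motifs were searched on both strands: TGANTCA (AP-1), TTCNNNGAA (STAT), CCGGAAGT (ETS), TGTGGT (RUNX), CACGTG (E-box), TGACGTCA (cAMP response), GGGCGG (GC box), CCAAT, the TATA box letters TATAAA, and the interferon response and NF-kappaB motifs. CD28 held 1 match, TGTGGT, starting 109 bases before the start site. Those letters were in 13.1% of all 35116 promoter windows. CTLA4 held 2 matches to CCAAT on the opposite strand, which 34.6% of windows hold, and CD80 held none of the 11. The CD28 window had 9 CG dinucleotides, CTLA4 4, ICOS 4, CD80 7 and the 2 CD86 windows 3 and 4, against a median of 14 over all windows. ICOSLG stood apart with 42 CG dinucleotides and 4 matches to GGGCGG, the GC box, which 45% of windows hold and of which the middle 2 share a base. A match is a string of letters and does not show that a factor was bound.

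CD28, the costimulatory receptor, had 11 regions in its window, 5 of them with a peak in all 4 libraries. CD28 spans chr2:203706482-203738912 on the plus strand, and distances are from the start site at 203706639. Its start region, chr2:203705215-203707124, was the tallest of its regions in both empty vector libraries. Height is given as fragments over the tallest summit per M fragments of the library. The start region reached 9.06 fragments per M with empty vector (248 fragments), 2.85 with PHF19 overexpression (52), 7.57 with IFN empty vector (499) and 2.63 with IFN PHF19 overexpression (43). Both empty vector libraries were high and both PHF19 libraries low, and the counting intervals of the former (7.97 to 10.3 and 6.92 to 8.27) did not meet those of the latter (2.13 to 3.74 and 1.9 to 3.54). The summit nearest the start site lay 77 to 130 bp before it in each library.

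Ratios between libraries are given on the log2 scale, with the median over all shared regions, those with peaks in both libraries, set to 0. At the CD28 start the centred ratio of PHF19 overexpression to empty vector was -1.56 (95% interval -2.02 to -1.12), a 2.94-fold lower height. In the IFN-prefixed pair it was -1.70 (-2.18 to -1.24), or 3.24-fold lower. Among the 35731 regions with a peak in all 4 libraries, 75 had both ratios at or below these. The region stood at percentile 84 of those regions with empty vector and 84.2 with IFN empty vector, but at 53.8 and 47.4 in the 2 PHF19 libraries. CD28 was chosen for this fall, so its rank and percentiles are a description and support nothing. A lower height can come from fewer cells with this site open or from less opening per cell, and bulk libraries cannot tell these apart.

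A separate summit of the same region, 1119 to 1184 bp before the start site, was lower as well. It had 4.2 fragments per M with empty vector (115 fragments) and 1.21 with PHF19 overexpression (22), a centred log2 ratio of -1.69 (-2.42 to -1.02). In the IFN-prefixed pair it had 3.76 (248 fragments) and 0.977 (16), a ratio of -2.11 (-2.94 to -1.38). The intervals overlap those of the summit at the start.

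**Figure D1:**
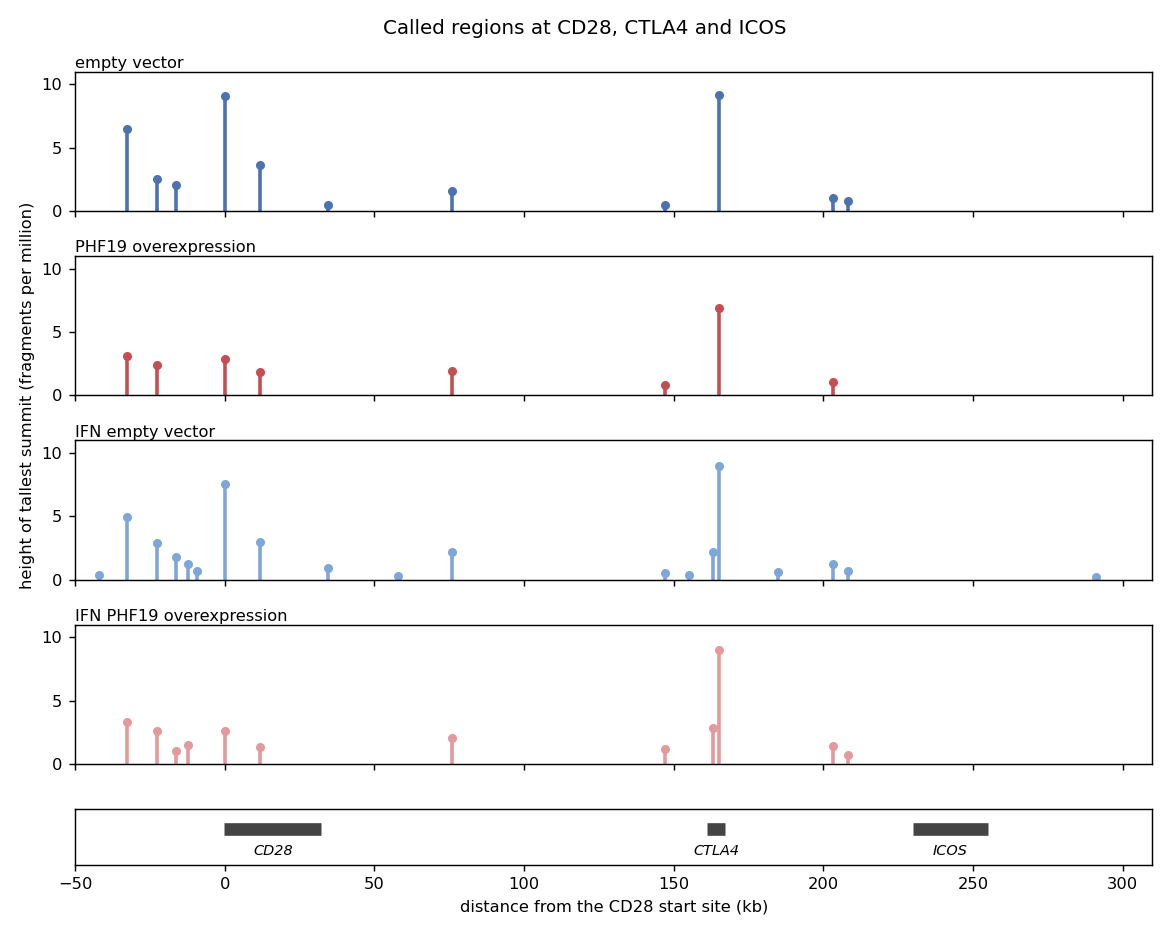
Called regions across CD28, CTLA4 and ICOS, 1 panel per library. The x axis is the distance from the CD28 start site in kb, each stem is a called region and the y axis its height in fragments per M, and dark boxes are gene bodies. The stem at 0 stands at 9.06 and 7.57 in the empty vector libraries and at 2.85 and 2.63 in the PHF19 libraries, while the tallest stem in CTLA4 lies between 6.91 and 9.14 in all 4.

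Away from the start, CD28 regions ranged from lower to about equal. Inside the gene, the region 11.7 kb after the start site (chr2:203717704-203718597) had 3.62 fragments per M with empty vector, 1.87 with PHF19 overexpression, 2.97 with IFN empty vector and 1.34 with IFN PHF19 overexpression. Its centred log2 ratios were -0.84 (-1.45 to -0.27) and -1.31 (-2.02 to -0.67). The region 32.5 kb before the start site (chr2:203673537-203674806) had 6.47, 3.13, 4.96 and 3.36 fragments per M in the same order of libraries, and ratios of -0.94 (-1.39 to -0.50) and -0.73 (-1.17 to -0.31). In both regions each PHF19 library was below each empty vector library.

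Another upstream region, 22.5 kb before the start site, gave 2.52, 2.36, 2.87 and 2.63 fragments per M and ratios of 0.02 (-0.57 to 0.59) and -0.29 (-0.81 to 0.19), intervals that include 0. At 16.4 kb before the start site a peak was called with empty vector (57 fragments), IFN empty vector (117) and IFN PHF19 overexpression (17) and not with PHF19 overexpression. A peak of the empty vector height would have had 38 fragments at the depth of the PHF19 overexpression library, whose lowest called peak had 8. The IFN-prefixed ratio there was -0.94 (-1.77 to -0.20). It compares a summit 16356 bp before the start site with IFN empty vector and 1 at 16088 bp with IFN PHF19 overexpression. A region 75.8 kb after the start site had ratios of 0.40 (-0.29 to 1.08) and -0.23 (-0.82 to 0.32). Just outside the window, the nearest regions, 54.5 kb below and 59.8 kb above the gene, had ratios of 0.15 and 0.40, and of -0.18 and -0.31.

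**Figure D2:**
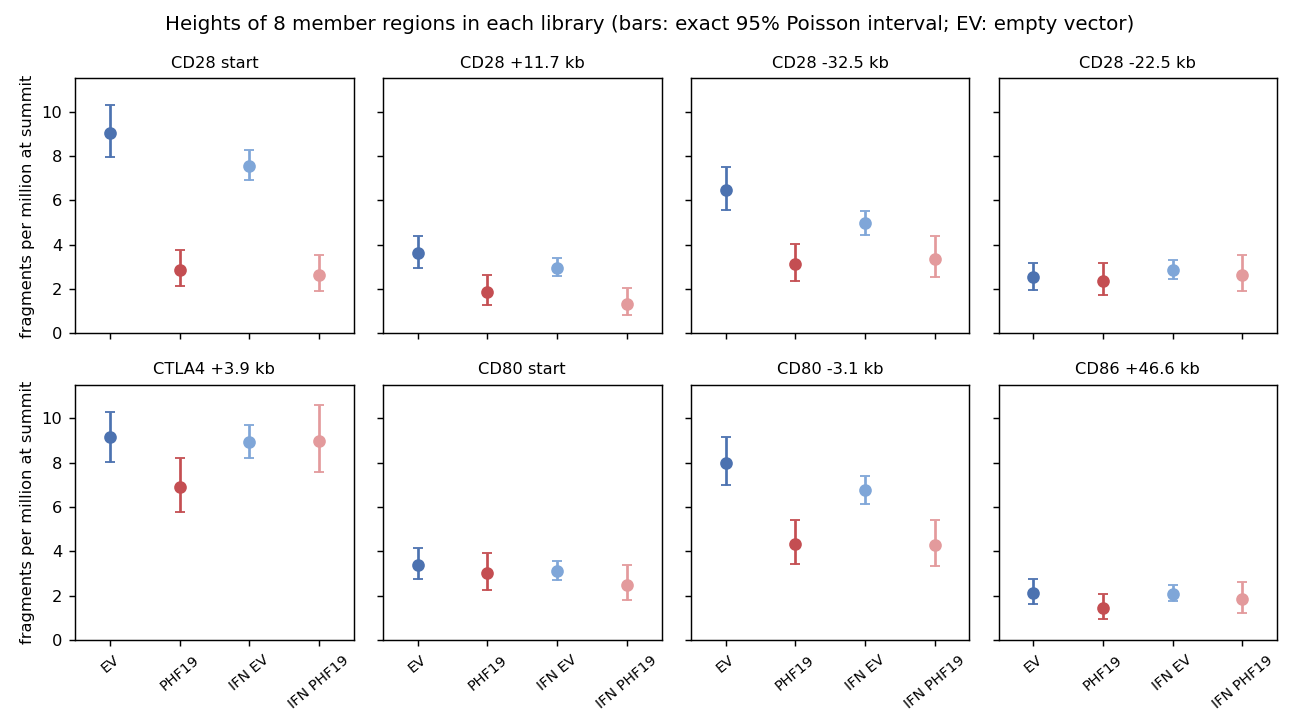
Heights of 8 regions in each library (y axis, fragments per M; x axis, library; EV is empty vector), with exact 95% Poisson intervals as bars. Both PHF19 points lie below both empty vector points at the CD28 start, 11.7 kb after it and 32.5 kb before it. The same holds 3.1 kb before CD80, at the CD80 start and 46.6 kb after the CD86 start. At the CD80 start the points lie between 2.5 and 3.4, and there and at CD86 the bars overlap.

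CTLA4, the inhibitory receptor for the same ligands, spans chr2:203867771-203873965 on the plus strand and had no peak at its start in any library. Its tallest region lay inside the gene, 3.9 kb after the start site (chr2:203871214-203872233), with 9.14 fragments per M with empty vector, 6.91 with PHF19 overexpression, 8.94 with IFN empty vector and 8.98 with IFN PHF19 overexpression. PHF19 overexpression was the low library and the other 3 were close together. The ratios were -0.29 (-0.61 to 0.02) and -0.16 (-0.43 to 0.10). This region and the CD28 start had almost equal heights with empty vector, at 9.14 and 9.06.

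A second CTLA4 region, 1.9 kb after the start site (chr2:203869415-203869923), was called in the IFN-prefixed libraries only, and was singled out after its values were seen. It had 2.17 fragments per M with IFN empty vector (143 fragments) and 2.87 with IFN PHF19 overexpression (47). Peaks of these heights would have had 59.4 fragments at the depth of the empty vector library and 52.3 at that of the PHF19 overexpression library, and 56.4% and 62.1% of the peaks called in those libraries had fewer. The authors' fold enrichment over local background was 2.58 and 3.28 at this summit, against 10.50 and 10.09 at the neighbouring region 3.9 kb after the start site. Over all regions 2387 were called in both IFN-prefixed libraries alone, and 33 of them were at least as tall in their lower library.

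The region 14.1 kb before the CTLA4 start site (chr2:203853315-203854115) was low, with 0.438, 0.823, 0.501 and 1.22 fragments per M, from 12, 15, 33 and 20 fragments. Both PHF19 libraries were above both empty vector libraries. Its ratios were 1.02 (-0.17 to 2.25) and 1.12 (0.24 to 1.96), so the first interval includes 0. The summit lay 13887 bp before the start site with empty vector and 14163 bp before it with PHF19 overexpression, so the first ratio compares different positions. Without centring the first ratio was 0.91 and with centring on regions within 2.5 Mb the ratios were 0.82 and 0.88, under the 2-fold line. Centring within 10 classes of height gave 0.74 and 0.99, also under it.

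ICOS, the third receptor (chr2:203936763-203961577, plus strand), had no peak in its gene or at its start in any library. Of the 4 regions in its window 3 are also in that of CTLA4. The 1 called in all 4 libraries lay 27 kb before the ICOS start site, with 1.06, 1.04, 1.24 and 1.4 fragments per M and ratios of 0.09 (-0.83 to 0.97) and 0.01 (-0.73 to 0.69).

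CD80, a ligand of CD28 and CTLA4 (chr3:119524293-119559614, minus strand), had a peak at its start in all 4 libraries. The start region (chr3:119559422-119560114) gave 3.4 fragments per M with empty vector, 3.02 with PHF19 overexpression, 3.11 with IFN empty vector and 2.5 with IFN PHF19 overexpression. The ratios were -0.06 (-0.57 to 0.44) and -0.48 (-1.0 to 0.01). A taller region 3.1 kb before the start site (chr3:119562367-119563214) gave 8, 4.33, 6.75 and 4.27 fragments per M from 219, 79, 445 and 70 fragments. Here both PHF19 libraries were low, with ratios of -0.77 (-1.16 to -0.40) and -0.83 (-1.21 to -0.46), short of the 2-fold line.

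Inside CD80, 2 weak regions stood on 8 to 20 fragments: 1 was called with PHF19 overexpression alone, 1 with PHF19 overexpression and IFN empty vector. Regions at neighbouring genes of the window are given for comparison. The start of TIMMDC1, which encodes a mitochondrial complex I assembly factor, had the tallest, with 13.3, 11.8, 11.3 and 12.8 fragments per M and ratios of -0.07 and 0.01. The region at ADPRH had ratios of 0.03 and 0.39.

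CD86, the other ligand of CD28 and CTLA4 (chr3:122055362-122121136, plus strand), has 2 promoter windows in RefSeq and had no peak at either in any library. Its tallest region lay 46.6 kb after the first start site, inside the gene (chr3:122101662-122102833), with 2.12, 1.43, 2.08 and 1.83 fragments per M. The ratios were -0.46 (-1.19 to 0.23) and -0.35 (-0.97 to 0.23). Another region inside the gene, 37.4 kb after that start site, had 0.804, 0.604, 0.956 and 1.4 fragments per M and ratios of -0.30 (-1.49 to 0.80) and 0.39 (-0.37 to 1.10). The 7 upstream regions of the window lie at or in ILDR1, the gene next to CD86, and the 1 of them called in all 4 libraries had ratios of -0.04 and 0.10.

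**Figure D3:**
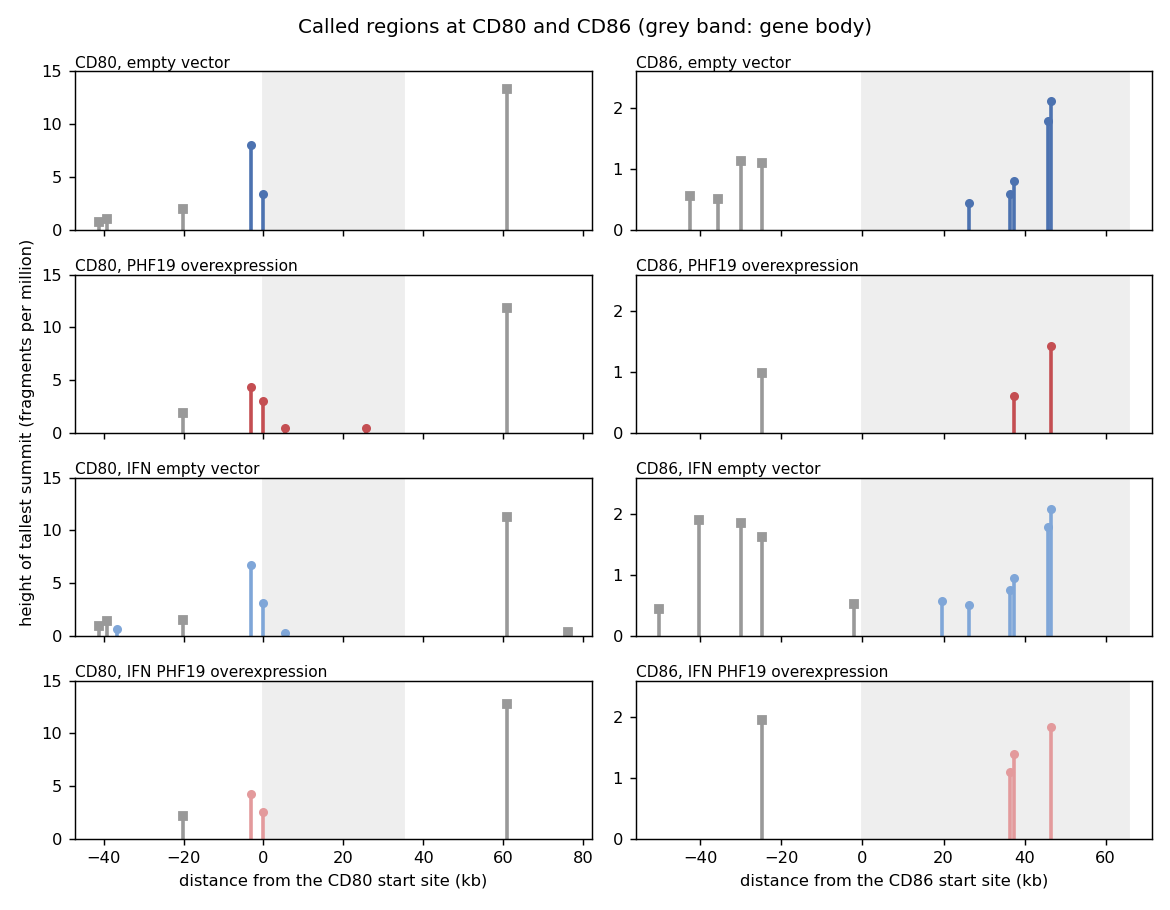
Called regions at CD80 (left) and CD86 (right), 1 row per library; the x axis is the distance from the start site in kb along the gene, the y axis the height in fragments per M, on different scales for the 2 genes. Grey bands are the gene bodies, and grey squares are regions at or in another gene. The CD80 stem 3.1 kb before the start site stands at 8 and 6.75 in the empty vector libraries and 4.33 and 4.27 in the PHF19 libraries, and no CD86 stem stands at the start site in any library.

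ICOSLG, the ligand of ICOS (chr21:44216981-44240943, minus strand), had no peak in its gene in any library. It lay in a stretch of 237.8 kb without a called peak, chr21:44022233-44260010, together with PWP2 and GATD3. The run of 277 bases printed above in capitals recurs in the promoter window of a copy at chr21:5022281-5022580, where no region was called either. How reads from repeated sequence were kept is not given in the sources used here, and its part in the missing peaks was not tested. The nearest region called in all 4 libraries, 26.9 kb before the ICOSLG start site, gave 2.85, 2.41, 2.44 and 1.95 fragments per M and ratios of -0.13 (-0.70 to 0.42) and -0.49 (-1.08 to 0.06).

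Counted over the 6 genes, few regions passed a 2-fold difference. With PHF19 overexpression against empty vector, 16 regions had a peak in both libraries, of which 1 was 2-fold lower, the CD28 start, against 2.76% of all regions, and 1 was 2-fold higher, the region 14.1 kb before CTLA4, against 3.54%. In the IFN-prefixed pair 21 regions could be compared, of which 2 were 2-fold lower, both in CD28, against 3.30%, and 1 was 2-fold higher, against 3.56%. In both pairs 1 of 16 was 2-fold lower, against 1.47%, and 1 of 16 higher, against 0.803%. Nothing is read from the lower counts, since CD28 was chosen on these ratios.

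The other 5 genes had 11 regions with a peak in all 4 libraries, none 2-fold lower in both pairs. At a 1.5-fold line, chosen after the values were seen, 4 of 16 regions were lower in both pairs, against 5.36% of all regions. Of these 3 were in the CD28 window and 1 was the region 3.1 kb before CD80. Below the median in both pairs were 3 of 5 CD28 regions and 5 of the 11 others, against 37.0% of all regions.

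**Figure D4:**
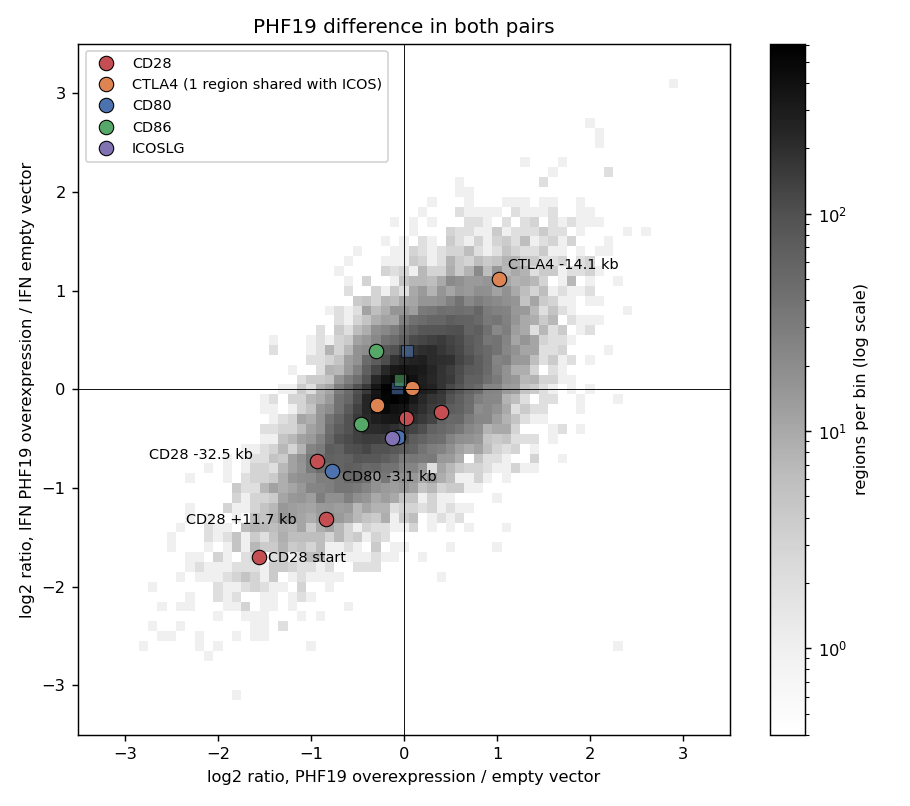
Centred log2 ratios in the unprefixed pair (x axis) and the IFN-prefixed pair (y axis) for the 16 regions of the 6 genes with a peak in all 4 libraries, over the density of all 35731 such regions in grey. Circles are regions of the members and squares regions at or in another gene. The CD28 start lies at -1.56 and -1.70, the region before CD80 at -0.77 and -0.83, and the region 14.1 kb before CTLA4 at 1.02 and 1.12.

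The libraries differed in which regions had a peak. Of the 44 regions 16 were called in all 4 libraries, against 48.5% of all regions, and 13 were called in the deepest library, IFN empty vector, alone, against 21.6% of all regions. The tallest of these lay in ILDR1, 40.4 kb before the CD86 start site, with 126 fragments or 1.91 per M, and was picked out after its values were seen. Of the 27 peaks of the empty vector library 11 had no overlapping peak with PHF19 overexpression, against 21.5% of all its peaks, and of its 18 peaks the PHF19 overexpression library had 2 with none with empty vector, against 12.0%. In the IFN-prefixed pair, 20 of 41 peaks of the empty vector library had no partner, against 38.2%, and 0 of 22 in the other direction, against 4.48%. Depth differed between the libraries of each pair, and its part in these counts was not tested.

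A peak in both empty vector libraries and neither PHF19 library was found at 6 of 44 regions, against 8.64% of all regions, and the reverse at 0, against 0.583%. The tallest of them with empty vector lay in CD86, 45.9 kb after the first start site (chr3:122101010-122101364), with 1.79 fragments per M in both empty vector libraries, from 49 and 118 fragments. Peaks of that height would have had 32.6 fragments with PHF19 overexpression and 29.3 with IFN PHF19 overexpression. In ILDR1, 29.9 kb before the CD86 start site, a region had 31 and 122 fragments in the empty vector libraries, 1.13 and 1.85 per M, the tallest of the 6 with IFN empty vector. In PLA1A, a phospholipase gene near CD80, 2 regions had 28 and 90, and 20 and 62, fragments. The last 2 regions were weaker still: 34.5 kb after the CD28 start site (14 and 59 fragments) and 26.4 kb after that of CD86 (12 and 33), where 9.32 and 7.99 fragments would have been expected with PHF19 overexpression, near its lowest peak of 8.

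For the IFN prefix, the ratios at the CD28 and CD80 starts and at the tallest CTLA4 region had intervals that include 0, while some weaker regions were higher. These comparisons use the same libraries as the PHF19 pairs, so they are no separate evidence. At the CD28 start the IFN-prefixed to unprefixed ratio was -0.17 (-0.40 to 0.05) with empty vector and -0.23 (-0.85 to 0.38) with PHF19 overexpression. The CTLA4 region 3.9 kb after the start site had 0.05 (-0.16 to 0.27) and 0.26 (-0.09 to 0.62), and the CD80 start -0.04 (-0.40 to 0.33) and -0.38 (-1.0 to 0.23). Higher with the prefix was the region in ILDR1 24.8 kb before the CD86 start site, at 0.65 (0.06 to 1.29) with empty vector and 0.87 (-0.01 to 1.79) with PHF19 overexpression, beside PHF19 ratios of -0.04 and 0.10. With empty vector, 3 more regions had intervals above 0. They were the region in ILDR1 29.9 kb before the CD86 start site, at 0.79 (0.22 to 1.41), and the CD28 regions 34.5 kb and 75.8 kb after the start site, at 0.89 (0.03 to 1.85) and 0.55 (0.05 to 1.08). At the 34.5 kb region the summit lay 34187 bp after the start site with empty vector and 34493 bp with IFN empty vector. Its ratio therefore compares different positions. The CD28 region 32.5 kb before the start site was lower, at -0.30 (-0.57 to -0.02). With empty vector 0 of 25 regions were 2-fold lower, against 0.134%, and 0 higher, against 0.744%. With PHF19 overexpression 0 of 16 were lower, against 0.451%, and 1 higher, against 1.12%. That 1 was the CD86 region 37.4 kb after the first start site, at 1.10 (0.01 to 2.29) from 11 and 23 fragments, and its 2-fold call was lost with centring on regions within 2.5 Mb. A peak in both IFN-prefixed libraries and neither unprefixed one was found at 2 of 44 regions, against 3.24%. They were the CTLA4 region 1.9 kb after the start site and a region 12.3 kb before the CD28 start site (1.23 and 1.53 fragments per M).

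Among 13778 other genes, the 5 whose tallest region was most like that of CD28 over the 4 libraries were FAM169A, PRR5-ARHGAP8, FOXD1, FER and IL23A. Likeness was the Euclidean distance between centred log2 heights, 0.12, 0.17, 0.19, 0.21 and 0.23 in that order, and rests on 4 values per gene. FOXD1 encodes a forkhead transcription factor, and its region had 17.6, 5.32, 13.9 and 4.27 fragments per M. IL23A encodes the p19 subunit of interleukin-23, and its region had 6.25, 2.14, 5.86 and 2.26. FER, a non-receptor tyrosine kinase gene, had a much taller region, at 39, 12.5, 31.8 and 13.3. The regions of FOXD1 (chr5:73446749-73449695), FAM169A (chr5:74819183-74820947) and FER (chr5:108747757-108749739) lie on the same chromosome. Whether they share a shift over a stretch of it was not tested, so they may not be separate cases. Being like CD28 was the rule of choice, so the PHF19 ratios of these genes, -1.40 to -1.61 and -1.43 to -1.87, add nothing to it.

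Other genes of the pathway were taken from 2 lists, using the tallest region within 1 kb of a gene end. Of 12 other members of the B7 and CD28 families 7 had such a region in all 4 libraries, and 0 passed 2-fold in either direction in either PHF19 pair. Over all 11982 such genes, 0.476% and 0.526% were 2-fold lower, and 1.09% and 0.843% higher, in the unprefixed and the IFN-prefixed pair. The family medians were -0.01 and -0.01, against -0.06 and 0.01 over all genes. They ranged from -0.14 at BTN2A2 to 0.23 at PDCD1, the gene of the inhibitory receptor PD-1, and in the IFN-prefixed pair from -0.25 at CD274, the gene of its ligand PD-L1, to 0.19 at VSIR. TMIGD2, VTCN1 and HHLA2 had no gene-end peak in any library. With the IFN prefix, the highest of the family was PDCD1LG2, the gene of the second PD-1 ligand, at 0.84 with empty vector and 0.81 with PHF19 overexpression.

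Of 35 genes that act below CD28 and CTLA4, among them kinases, adaptors and NF-kappaB and NFAT factors, 30 had a gene-end region in all 4 libraries. Their medians were -0.10 and 0.01. In the unprefixed pair 0 were 2-fold lower and 0 higher, and the ratios ranged from -0.41 at LAT, a T cell adaptor, to 0.91 at LCP2, another adaptor. In the IFN-prefixed pair 0 were 2-fold lower, and the lowest was PIK3CA, a catalytic subunit of phosphoinositide 3-kinase, at -0.36. The higher side of the list in that pair is not reported here. The 12 plasma cell markers had medians of -0.11 and -0.13, with 0 past 2-fold in either pair, and went both ways. They ranged from -0.72 at IRF4 to 0.82 at JCHAIN in the unprefixed pair, and from -0.98 at FCRL5 to 0.83 at SDC1 in the IFN-prefixed pair. IRF4 (-0.72 and -0.31), TNFRSF17 (-0.47 and -0.36), MZB1 (-0.46 and -0.43) and SLAMF7 (-0.62 and -0.55) had intervals below 0 in both pairs. SDC1, the gene of the plasma cell surface protein CD138, had intervals above 0 in both, at 0.37 and 0.83. The 3 T cell markers with regions ranged from -0.72 at CD4 to 0.31 at CD3E in the unprefixed pair, and the summed height of the list was 25.2, 22.9, 23.6 and 21.5 fragments per M. Of the 13 markers, 5 had a gene-end peak with empty vector and 8 with IFN empty vector, against 3 in each PHF19 library. Of all 19970 protein-coding genes, 12438 had one with empty vector and 12303 with PHF19 overexpression. In the IFN-prefixed pair 13005 had one with IFN empty vector and 12342 with IFN PHF19 overexpression. CD3D, CD247 and TRAT1 had one in the deepest library, IFN empty vector, alone, at 0.288, 0.728 and 0.303 fragments per M. CD2, an adhesion receptor of T cells, had one in both empty vector libraries (1.53 and 1 fragments per M) and in neither PHF19 library. So had LCK, the kinase of the T cell antigen receptor (1.94 and 1.71), and CD22, a B cell marker (0.512 and 0.349). Over all regions, rather than gene ends, 8.64% had that pattern. The 3 B cell markers with regions had medians of 0.45 and -0.07, with 1 past 2-fold, BLK, a B cell kinase gene, at 1.02 and 0.80. The 3 myeloid markers with regions had medians of 0.03 and 0.08 and 0 past 2-fold, from -0.49 at ITGAX to 0.70 at ITGAM in the unprefixed pair. The part of other cells in the CD28 difference was not tested beyond these values.

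**Figure D5:**
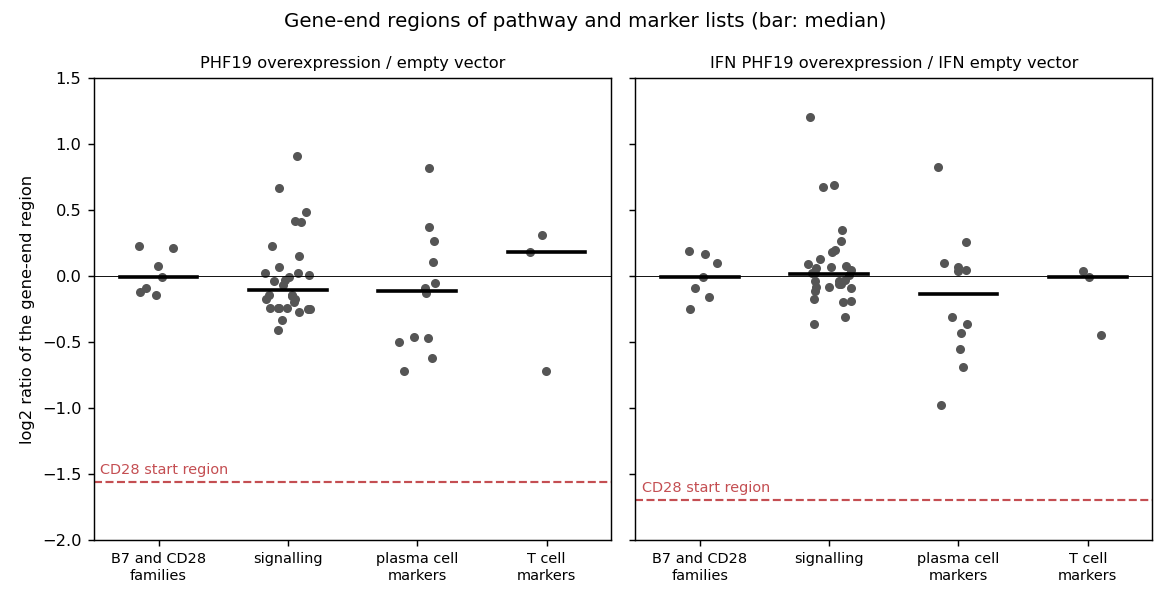
Centred log2 ratio of the gene-end region (y axis) for each gene with one in all 4 libraries, by list (x axis), in the unprefixed pair (left) and the IFN-prefixed pair (right). Points are genes and black bars list medians. The dashed line is the CD28 start region, at -1.56 and -1.70, below every plotted gene of the 4 lists. CD28 was chosen for these ratios, so its place below them is a description and supports nothing.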

How the data were processed

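ATAC-seq was done on 4 AMO1 libraries, 1 per group, and each was assigned to its group from its title. Cells were treated with DNase I before lysis and Tn5, per the labels' protocols. Per the file headers, the authors ran MACS2 2.1.2 on the paired-end fragments of 1 library at a time, with no control library, a q threshold of 0.01, all duplicates kept, subpeak summits called and 3000000000 as genome size. The submitters' processing notes name hg38, bcl2fastq 2.17, Trimmomatic 0.38 and DiffBind. An aligner, read filter or Tn5 shift was not given in the sources used here. Kept duplicates mean that fragments are not all independent molecules.

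The deposited pileup is a signal, the unscaled coverage by fragments at a summit, per the file headers. Significance, deposited as -log10 of p and of q, served only to filter and rank peaks within a list, and the authors' fold enrichment, a ratio to local background, only to describe a peak.

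Peaks overlapping by at least 1 bp were merged into regions. Height was the tallest pileup over the fragments in the file header, in M. Log2 ratios were centred on the median of shared regions (-0.11, 0.17, -0.09 and 0.11 for the PHF19 difference in the unprefixed and the IFN-prefixed pair and for the IFN prefix with empty vector and with PHF19). A region was called at a 2-fold difference. The 95% intervals are exact ones for a count or a ratio of 2 counts, and the interval step was tested on simulated data. Gene positions and promoter windows came from RefSeq on GRCh38.p14, which matched all 6 symbols. Exon positions were not used here. Python 3.11.15, pandas 2.3.3, numpy 2.4.6, scipy 1.17.1 and matplotlib 3.10.9 were used.

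The members, the 6 gene and marker lists and the rules were chosen with earlier results of these data known. All members are named. Regions are given in full when they lie within 1 kb of a member gene's ends, are the tallest inside it, pass 2-fold inside it in both PHF19 pairs, or have peaks in both libraries of 1 vector only. The 5 genes most like CD28 were sought among regions inside genes whose height averaged 1 fragment per M or more. List genes are named as the highest and lowest of their list or when past 2-fold in both pairs, and other names were chosen after their values were seen. Some list genes are not reported here. Alternatives were other centrings, summit choices, a q of 1e-05, lists cut to equal length, a 50% overlap, and windows of 1 kb and 100 kb. A 1.5-fold line and leaving out regions at other genes were added after the values were seen.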

Additional observations from a re-analysis of the deposited data

How the results depend on the processing

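The log2 ratio at the CD28 start kept its direction and its 2-fold call under every alternative that gave a value, from -1.46 to -1.72 in the unprefixed pair and from -1.53 to -1.89 in the IFN-prefixed pair. Single ratios were recomputed for the 16 regions of the 6 genes with a peak in all 4 libraries, and not for the others. None of the recomputed ratios changed direction past a 2-fold call, and 438 of 439 stayed within the counting interval of the reported value. The exception was the IFN-prefix ratio with empty vector at the TIMMDC1 start near CD80, at 0.07 with centring within 10 classes of height. Counts of 2-fold calls were small and moved. The count of regions lower with PHF19 overexpression against empty vector, 1 as reported, was 2 without centring, 3 with centring on regions within 2.5 Mb and 4 at a 1.5-fold line. The count higher in that pair, 1 as reported, was 0 without centring, with either other centring, with summits matched within 200 bp, at a q of 1e-05, with lists of equal length and in windows of 1 kb. In the IFN-prefixed pair, the lower count of 2 was 5 at 1.5-fold, and the higher count of 1 was 0 with either other centring, with lists of equal length and in windows of 1 kb. For the IFN prefix with empty vector, the higher count of 0 was 3 at 1.5-fold. With PHF19 overexpression the lower count of 0 was 1 at 1.5-fold, and the higher count of 1 was 0 with either other centring and at a q of 1e-05, and 2 at 1.5-fold. Unpartnered peaks with empty vector, 11 as reported, were 7 at a q of 1e-05 and 6 with lists of equal length, and those with PHF19 overexpression, 2 as reported, were 1 at a q of 1e-05. With lists of equal length, the 20 of the IFN empty vector library were 6 and the 0 of the IFN PHF19 overexpression library were 3. Stricter peaks and shorter lists leave fewer peaks to compare, and the cause of the other moves was not tested.

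No paired analysis was possible because each group holds 1 library and no comparison had a test. Depth limits the weak regions most: peaks of 8 to 20 fragments sit at the lowest height called, and a region without a peak is below a calling threshold, not closed. Only regions with a peak in both libraries have a ratio, so a site lost completely is not among the 2-fold calls.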
